A study of Drosophila melanogaster with 10 samples.

Results

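The vacuolar proton pump (V-ATPase) genes were taken as all genes whose symbol begins with Vha, which gave 32 of the 17869 genes listed in the H2A.Z set of this Drosophila melanogaster series. RNA was sequenced from S2 cells, an established fly cell line, in 10 libraries that form 5 groups of 2. The H2A.Z set compared H2A.Z KD with Luc KD, both with transfected Ac WT and Da, and Ac WT with Ac R29G, both with Da and under Luc KD. The Arp6 set compared Arp6 KD with its own Luc KD, both with Ac WT and Da.

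KD stands for knockdown by double-stranded RNA. H2A.Z is the histone variant encoded by His2Av, Arp6 is an actin-related protein of the complex that exchanges H2A.Z into nucleosomes, and Luc is the control target. Ac is the proneural transcription factor Achaete, R29G is a variant of it, and Da (Daughterless) is its partner. All 10 libraries therefore came from cells that received Da and a form of Ac, and none of them from cells without transfection. The labels give no share of cells that took up plasmid. The series title names the question of how Arp6 acts in gene activation by proneural proteins. Libraries were made with 1 of 2 kits, MGIEasy or TruSeq, and the labels do not tie a kit to a library.

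The V-ATPase is a rotary motor that moves protons into lysosomes, endosomes and secretory vesicles at the cost of ATP. Its V1 sector lies in the cytosol and hydrolyses ATP, and its V0 sector lies in the membrane and carries the protons. Flies have several genes for many of the subunits, of which one is usually expressed in most tissues and the others in few, such as testis, neurons or parts of the gut. Hemocytes, the blood cells that S2 cells resemble, take up and digest other cells and depend on acid lysosomes.

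Of the 32 genes, 13 encode V1 subunits, 18 encode V0 subunits and 1, VhaAC45, encodes an accessory protein. From general knowledge of the family, 14 were set down as the broadly expressed gene of their subunit and 18 as other paralogs. All 32 had the same coordinates in the files and in the BDGP6 annotation, with 11 on chromosome arm 3R, 8 on 2R, 6 on 2L, 5 on 3L and 2 on X. In the Arp6 set 25 of the 32 were listed, the broadly expressed 14 and 11 other paralogs. The accessory subunit gene VhaM8.9 is listed under another symbol, ATP6AP2, so that it falls outside the rule, and it is described with the related genes further on.

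Libraries of the H2A.Z set held 24500413 to 33712374 reads and those of the Arp6 set 9396318 to 10608470 reads. Values below are scaled reads, that is, reads per gene divided by 1 size factor per library, with no length correction unless reads per kb of exon are named. The H2A.Z set was deposited in 2 tables, A and B, each with 1 library of every group, and pairs of values are given as table A and table B. Pairs in the Arp6 set are replicates 1 and 2. His2Av in H2A.Z KD was at 26.2% of Luc KD in table A and 13.9% in table B. The transfected da was at 69.6% and 70.2% of Luc KD in the same pairs, and ac at 81.5% and 104.9%. The part of these levels in the values of the pump genes was not tested. Arp6 in Arp6 KD was at 79.8% of Luc KD in replicate 1 and 22.0% in replicate 2, so the library labelled Arp6 KD replicate 1 still holds most of its Arp6 RNA. Whether libraries of a group are separate cultures is not stated, and the p-values measure no more than the spread between these libraries. In RNA from a whole culture, fewer cells that use a gene and less of its RNA per cell cannot be told apart. All 10 hemocyte markers on a list that includes Hml, srp, NimC1 and Ppn were detected, with summed scaled reads of 226630 to 269874 in H2A.Z KD, 168714 to 196810 in Luc KD and 164978 to 204825 in Ac R29G, and of 93225 to 93854 in Arp6 KD and 76532 to 77474 in its Luc KD. The part of this marker level in the values of the pump genes was not tested. Summed markers reached at most 92.8 scaled reads for 5 gut and tubule genes and 74.5 for 5 fat body genes in the H2A.Z set. They were 2649 to 3118 in H2A.Z KD and 2328 to 2815 in Luc KD for 5 muscle genes, and 2151 to 2552 in H2A.Z KD and 1754 to 2122 in Luc KD for 5 germ line genes.

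The 14 broadly expressed genes supplied nearly all pump RNA in these cells, beside 1 further gene, Vha100-1. The 14 broadly expressed genes held 1545 to 64862 scaled reads in every library of the H2A.Z set and 588 to 15417 in the Arp6 set, and together made up 93.1% to 94.3% of all reads of the 32 genes. Of the 18 other paralogs, 8 reached at least 10 scaled reads in some library of the H2A.Z set, 6 were above 0 in some library but never above 3.66, and 4 were listed at 0 in all 6 libraries. Those at 0 were Vha100-3, Vha16-2, Vha16-3 and VhaM9.7-d. A count of 0 allows up to 3 reads in a library by counting error alone, and Lamtor2 and Trpml, which encode a scaffold and a channel of lysosomes in most cells, were also listed at 0, so a 0 in these tables is given only as listed. Those between 0 and 10 were Vha100-5, Vha14-2, Vha16-4, Vha36-2, VhaM9.7-a and VhaPPA1-2. A mean of at least 1 scaled read was needed for a test, which 25 of the 32 genes met in the H2A.Z set and 23 in the Arp6 set.

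**Figure D1:**
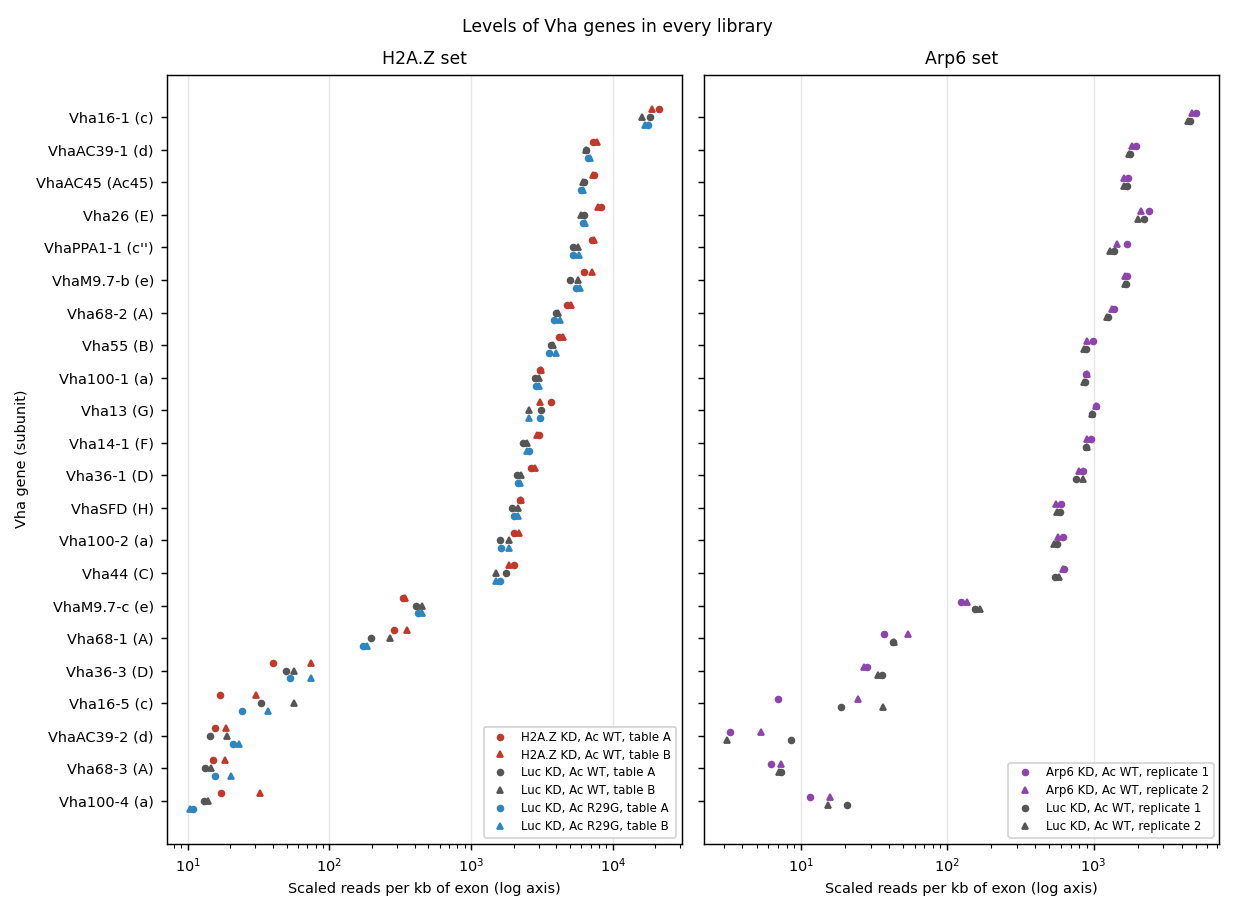
Scaled reads per kb of exon (log axis) of the 22 Vha genes that reached at least 10 scaled reads in the H2A.Z set, in every library, ordered by their mean in Luc KD with Ac WT; the subunit letter stands in brackets, circles are table A or replicate 1 and triangles are table B or replicate 2. Vha16-1 stands above the rest, 14 genes from VhaAC39-1 to Vha44 lie within the next stretch, and a gap separates them from VhaM9.7-c and the genes under it.

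Per kb of exon, Vha16-1 was the highest gene of the pump in every group. It encodes the main subunit c, of which the V0 ring holds several copies, and lies on chromosome 2R, 6625242 to 6633090, minus strand (BDGP6). Its level was 19971 ± 1568 scaled reads per kb in H2A.Z KD, 17243 ± 1442 in Luc KD and 17299.9 ± 434 in Ac R29G (SD, n = 2 each). In the Arp6 set it was 4865 ± 205 in Arp6 KD and 4487 ± 55.4 in Luc KD. In the H2A.Z set this 1 gene supplied 29.7% to 33.5% of the reads of all 32 genes.

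The next genes per kb in Luc KD of the H2A.Z set were VhaAC39-1 (6469 ± 42.8), VhaAC45 (6216 ± 73.6) and Vha26 (6109 ± 245), of which VhaAC39-1 lay just above both in each library and the other 2 overlapped. VhaM9.7-b (5359 ± 479) and VhaPPA1-1 (5474 ± 296) overlapped too. Vha68-2 (4027 ± 111) and Vha55 (3739.7 ± 89.2), the A and B subunits that alternate in the head of V1, lay next and did not overlap. Vha100-1 (2918 ± 148) and Vha13 (2848 ± 416) overlapped, Vha14-1 (2412 ± 95.7) stood under them, and Vha36-1 (2178 ± 101) overlapped with VhaSFD (2044 ± 134). The lowest broadly expressed genes per kb were Vha100-2 (1724 ± 172) and Vha44 (1633 ± 179), which overlapped. Below Vha44 came VhaM9.7-c (429.9 ± 26.8) and Vha68-1 (232 ± 48.9), which did not overlap with it.

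One gene set down among the other paralogs did not have a low level. Vha100-1, a subunit a gene known in flies for its role at synapses of neurons (chromosome 3R, 29131193 to 29137980, plus strand), had 10106 and 10278 scaled reads in H2A.Z KD, 9252 and 9940.2 in Luc KD and 9461 and 9889 in Ac R29G. Vha100-2, set down as the broadly expressed subunit a gene, had 6516 and 7015 in H2A.Z KD, against 5162 and 5945 in Luc KD and 5273 and 5974 in Ac R29G. Vha100-1 was above Vha100-2 in all 10 libraries and supplied 60.1% and 58.6% of the subunit a reads per kb in H2A.Z KD, 63.5% and 61.9% in Luc KD and 63.6% and 61.7% in Ac R29G. Its share in the Arp6 set was 58.3% and 60.7% in Arp6 KD and 59.8% and 61.1% in Luc KD. Summed neuron markers (elav, nSyb, brp, Syt1 and para) reached 872 to 890.3 scaled reads in H2A.Z KD and 872 to 887 in Luc KD of this set.

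H2A.Z KD was compared with Luc KD, both with Ac WT. All 14 broadly expressed pump genes had a higher mean in H2A.Z KD. Their differences ran from 0.13 to 0.41 on the log2(value + 1) scale, with a median of 0.27. The median was -0.01 over all 11942 genes tested, of which 48.9% had a higher mean. It was 0.07 over the 3906 genes with a mean of at least 1000 scaled reads, of which 59.4% had a higher mean. The sign turned for Vha16-1 and VhaAC39-1 under quantile scaling and for VhaSFD under total read scaling. VhaPPA1-1 and Vha26 showed the largest differences and VhaSFD the smallest. In the fit without a block (limma, Benjamini-Hochberg adjusted p below 0.05) 0 of the 25 members tested passed, where 4.65% of all genes did, and 12 of the 25 had an unadjusted p below 0.05. Without a block edgeR called 1 member of 22 tested (Vha26), where it called 7.23% of all genes, and DESeq2 called 6 of 25, where it called 12.2%; these members were all higher. With the table as a block 17 of 25 passed, where 37.7% of all genes did; 15 members rose and 2 fell, where 18.4% of all genes rose and 19.3% fell. Of the broadly expressed genes 7 of 8 in V1, all 5 in V0 and VhaAC45 rose. Among the 14 broadly expressed genes 13 rose in the blocked fit; of all 3906 genes with a mean of at least 1000 scaled reads, a level that these 14 genes also reach, 37.5% rose. The block is given beside the unblocked fit because libraries of the same table deviated together in all 3 pairs of groups. Without limma's trend of variance with level the blocked fit called 0 members and 0% of all genes, with 15 of the 25 members at an unadjusted p below 0.05, while edgeR with the block called 17 of 22 members and 49.5% of all genes, and DESeq2 14 of 25 members and 27.8% of all genes. Leaving out 1 library leaves 1 library in its group, so sizes and lost calls are given for those blocked limma fits. The median difference of the members was 0.19 without Luc KD of table B and 0.26 without Luc KD of table A. That of all genes was -0.01 in both fits. Of the broadly expressed genes Vha13, Vha16-1, Vha44, Vha55 and VhaAC39-1 lost their call without Luc KD of table B. Vha14-1 lost its call without Luc KD of table A.

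The 14 genes were higher in H2A.Z KD within table A and within table B alike, a pattern seen in 37.4% of all genes tested and 52.7% of genes with a mean of at least 1000. In 13 of the 14 both H2A.Z KD libraries lay above both Luc KD libraries, against 25% of all genes and 35.9% of those with a mean of at least 1000. The exception was Vha13, whose ranges overlapped.

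The catalytic subunit A gene Vha68-2 (chromosome 2L, 12974322 to 12978607, plus strand) had 13203 and 14037 scaled reads in H2A.Z KD, against 10896 and 11327 in Luc KD. The log2 difference was 0.29 ± 0.052 (SE, limma with block, adjusted p = 0.000312), with an adjusted p of 0.115 without the block. Vha55, the B subunit that shares the head with A, had 11621 and 12505 in H2A.Z KD and 10243 and 10594 in Luc KD, a difference of 0.21 (adjusted p = 0.0049 with block, limma). Both H2A.Z KD libraries were above both Luc KD libraries for each of these genes.

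Subunits D and F form the shaft that turns inside the head. Vha36-1 (D) had 2829.7 and 3031 scaled reads in H2A.Z KD and 2241 and 2393 in Luc KD, a difference of 0.34 (limma with block, adjusted p = 0.00035). Vha14-1 (F) had 1991 and 1936 in H2A.Z KD, against 1545 and 1634 in Luc KD, a difference of 0.31 (adjusted p = 0.00187, same fit). The H2A.Z KD libraries were the highest 2 of the 6 libraries of the set for both genes, Ac R29G included, where Vha36-1 had 2269.8 and 2369.6 and Vha14-1 1682 and 1646. How many of all genes had H2A.Z KD above all other libraries of the set was not counted. Above Luc KD with Ac WT alone it lay in 25% of all genes and 35.9% of those with a mean of at least 1000.

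Subunits E and G make up the outer stalks that hold the head still. Vha26 (E, chromosome 3R, 5591763 to 5595356, plus strand) had 24153 and 22981 scaled reads in H2A.Z KD, against 18383 and 17369 in Luc KD and 18167 and 18645 in Ac R29G. The H2A.Z KD libraries held 131% and 132% of the Luc KD library of their own table, and the difference of 0.40 ± 0.053 had an adjusted p of 1.93e-05 with the block and 0.0551 without it (limma). Vha13 (G) had 3478 and 2879 in H2A.Z KD and 2963 and 2409 in Luc KD. For Vha13 the H2A.Z KD library of table B lay below the Luc KD library of table A, yet each H2A.Z KD library was above the Luc KD library of its own table, at 117% and 119.5%, and the difference of 0.24 passed with the block (adjusted p = 0.0039, limma).

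Subunit C links the stalks to the membrane sector and, in yeast, leaves when the pump comes apart, and subunit H is a regulator that holds back ATP hydrolysis by free V1 in yeast. Vha44 (C) had 8038 and 7444 scaled reads in H2A.Z KD and 7078 and 6059 in Luc KD, a difference of 0.24 (limma with block, adjusted p = 0.00293). Vha44 overlaps Hmgs on the opposite strand, and the labels do not say whether reads were counted by strand. VhaSFD (H) had 6263 and 6411 in H2A.Z KD and 5515 and 6051 in Luc KD. It was the only one of the 14 broadly expressed genes that did not pass with the block (difference 0.13, 95% interval 0.02 to 0.25, adjusted p = 0.0682, limma).

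**Figure D2:**
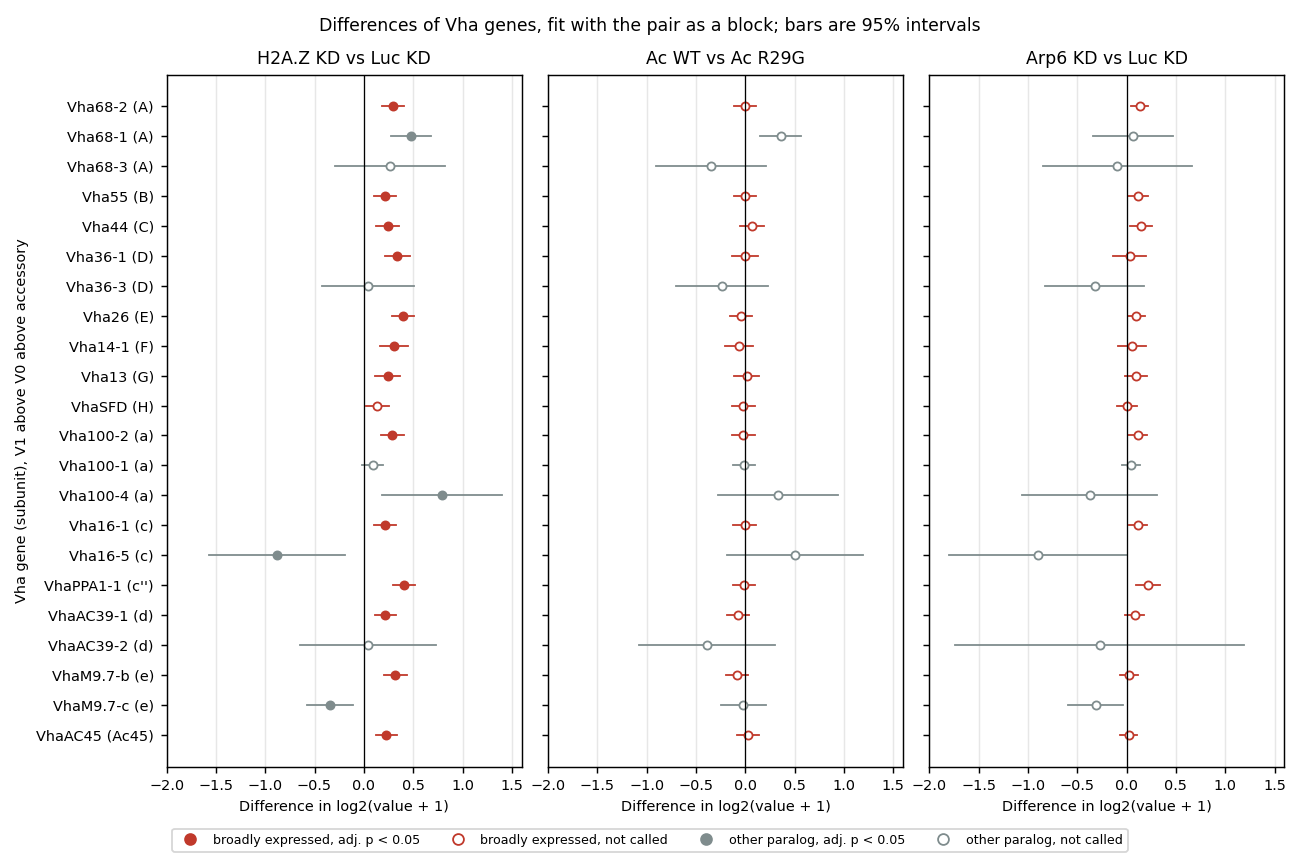
Difference in log2(value + 1) for the 22 Vha genes with at least 10 scaled reads in the H2A.Z set, from limma with the pair as a block; bars are 95% intervals, filled points passed an adjusted p of 0.05, red marks broadly expressed genes and grey the other paralogs. In H2A.Z KD against Luc KD 13 of 14 red points are filled and lie right of 0 (Vha16-1 and VhaAC39-1 turn under quantile scaling, VhaSFD under total read scaling), while no point is filled for Ac WT against Ac R29G or for Arp6 KD against Luc KD.

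In the membrane sector, VhaPPA1-1, which encodes the ring subunit c'' (chromosome 3R, 14902330 to 14904061, minus strand), had 9618 and 9974 scaled reads in H2A.Z KD, against 7117 and 7684 in Luc KD and 7071 and 7864 in Ac R29G. Its difference of 0.41 ± 0.054 was the largest of the 14 (limma with block, adjusted p = 1.95e-05, and 0.0594 without it). Vha16-1, the main ring subunit, had 64862 and 58041 in H2A.Z KD and 56194 and 49919.7 in Luc KD, a difference of 0.21 (adjusted p = 0.00488 with block, limma). The H2A.Z KD libraries of Vha16-1 were above both Luc KD libraries, by a smaller margin than those of VhaPPA1-1.

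VhaAC39-1, subunit d, which joins the ring to the shaft, had 13046 and 13943 scaled reads in H2A.Z KD and 11538 and 11647 in Luc KD (difference 0.22, adjusted p = 0.00321 with block, limma). Under quantile scaling the differences of Vha16-1 and VhaAC39-1 were -0.086 and -0.021. VhaM9.7-b, the small subunit e, had 7584 and 8691 in H2A.Z KD and 6106 and 6929 in Luc KD (difference 0.32, adjusted p = 0.000217, same fit). VhaAC45, an accessory protein of V0, had 14782 and 14507 in H2A.Z KD and 12618 and 12408 in Luc KD (difference 0.23, adjusted p = 0.0023, same fit). The H2A.Z KD libraries of all 3 genes were above both Luc KD libraries.

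Subunit a holds the path that protons take through the membrane, and 2 of its genes were highly expressed. Vha100-2 (chromosome 3R, 18390323 to 18399169, minus strand) rose with the block by 0.29 ± 0.055 (limma, adjusted p = 0.000604), with the H2A.Z KD libraries at 126% and 118% of the Luc KD library of their table. Vha100-1 differed by 0.09 ± 0.052 (95% interval -0.02 to 0.20, adjusted p = 0.211 with block, limma), at 109% and 103%. Vha100-1 passed with the block under library median scaling (difference 0.21, adjusted p = 0.00325, limma), and its difference turned to -0.10 under quantile and to -0.096 under total read scaling. The share of Vha100-2 in the subunit a reads per kb was 39.6% and 40.8% in H2A.Z KD, against 36.2% and 37.8% in Luc KD and 36.2% and 38.1% in Ac R29G, so that the H2A.Z KD libraries had the highest 2 shares of the set. No test of the difference between the 2 genes was made. Vha100-2 overlaps Vti1b and Vha100-1 overlaps CG14512, each on the opposite strand.

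Of the 11 other paralogs tested 4 passed with the block, or 36.4% beside 37.7% of all genes, 2 of them higher and 2 lower, and 0 passed without it. Vha68-1, a subunit A gene that lies 19477 bases from Vha68-3 on chromosome arm 2L (13000770 to 13004107, minus strand), had 767 and 953 scaled reads in H2A.Z KD, against 528 and 713 in Luc KD and 466 and 491 in Ac R29G. It rose by 0.48 ± 0.10 (limma with block, adjusted p = 0.00103). Its share of subunit A per kb, 5.63% and 6.52% in H2A.Z KD and 4.74% and 6.07% in Luc KD, overlapped between the groups. How reads that match both Vha68-1 and Vha68-2 were counted is not stated in the labels.

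Vha100-4, another subunit a gene, 518 bases from Vha100-2, had 47.3 and 87.9 scaled reads in H2A.Z KD and 35.8 and 37.8 in Luc KD (difference 0.79 ± 0.29, limma with block, adjusted p = 0.0378). The table B library of H2A.Z KD stood above all others. The call was lost without that library and without either Luc KD library, under total read scaling (limma, adjusted p = 0.101) and with DESeq2 (adjusted p = 0.135). The gene overlaps cona on the opposite strand, which had 32.6 and 61 scaled reads in H2A.Z KD and 23 and 38.8 in Luc KD.

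VhaM9.7-c, a second gene for subunit e (chromosome 3L, 4186018 to 4186865, minus strand), went the other way. It had 281 and 292 scaled reads in H2A.Z KD, against 348 and 381 in Luc KD and 356 and 382 in Ac R29G, and fell by 0.34 on the log2 scale (-0.34 ± 0.11, limma with block, adjusted p = 0.0192). Both H2A.Z KD libraries lay below all 4 libraries of Luc KD with Ac WT and with Ac R29G. Of all genes tested, 27% had H2A.Z KD below Luc KD with Ac WT without overlap. The call was lost without the H2A.Z KD library of table B and without either Luc KD library. Its share of the subunit e reads per kb was 5.05% and 4.59% in H2A.Z KD, 7.56% and 7.3% in Luc KD and 7.11% and 7.15% in Ac R29G. In the Arp6 set the share was 6.8% and 7.6% in Arp6 KD and 8.53% and 9.33% in Luc KD, again without overlap. The gene overlaps Teh2 on the same strand and CG18675 on the opposite strand, which held at most 26.9 and 8.36 scaled reads in any library of the H2A.Z set.

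Vha16-5, a low subunit c gene, had 12.4 and 22 scaled reads in H2A.Z KD, 23.9 and 40.8 in Luc KD and 17.7 and 26.7 in Ac R29G. It fell by 0.88 on the log2 scale with the block (-0.88 ± 0.33, limma, adjusted p = 0.0433). The H2A.Z KD values overlap those of Ac R29G. The call was lost when any H2A.Z KD library, any library of Luc KD with Ac WT or the Ac R29G library of table B was left out. With the block, neither VhaM9.7-c nor Vha16-5 was called under library median scaling (limma, adjusted p = 0.131 and 0.0807) or by DESeq2 (adjusted p = 0.112 and 0.252). VhaM9.7-c was not called under quantile scaling (limma, adjusted p = 0.24), and Vha16-5 was not called with only the 2 groups compared (adjusted p = 0.0516).

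The other paralogs in the low range did not pass. Vha36-3 had 51.8 and 96.4 scaled reads in H2A.Z KD and 63.9 and 73.5 in Luc KD, with opposite directions in the 2 tables. Vha68-3 had 37.1 and 45.2 in H2A.Z KD and 32.4 and 35.7 in Luc KD, and VhaAC39-2 had 19.1 and 23.2 in H2A.Z KD, against 17.9 and 23.5 in Luc KD. At these levels the 95% intervals of the blocked differences reached from -0.42 to 0.51 for Vha36-3 and from -0.65 to 0.73 for VhaAC39-2, so that changes of the size seen for the broadly expressed genes would not be detectable.

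**Figure D3:**
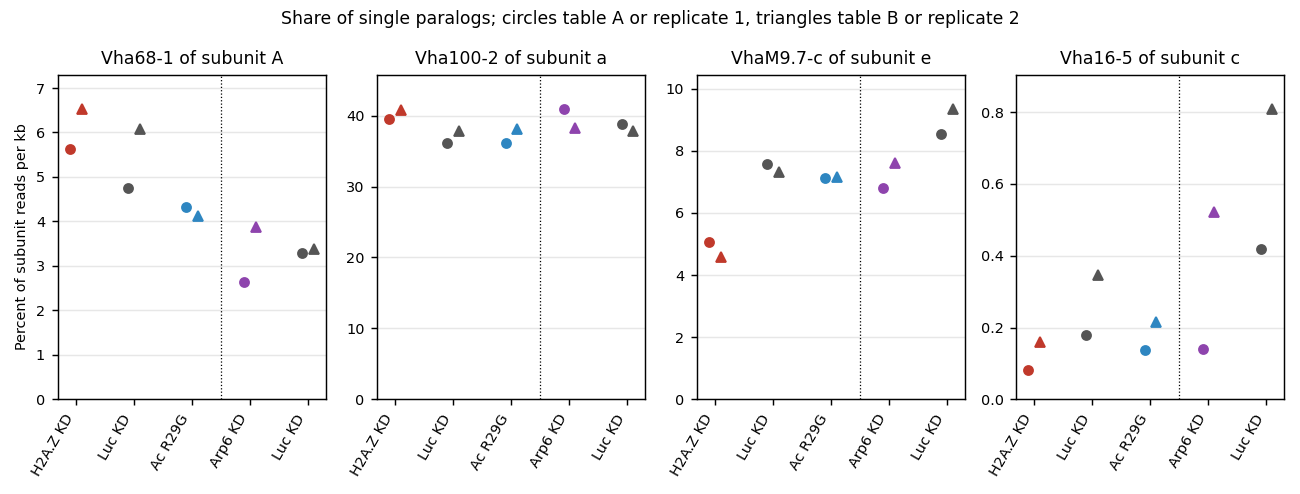
Percent of a subunit's scaled reads per kb that came from 1 paralog, in every library; H2A.Z KD, Luc KD and Ac R29G (under Luc KD) belong to the H2A.Z set and the groups right of the dotted line to the Arp6 set. The share of VhaM9.7-c is lower in both knockdowns than in their own Luc KD, while the shares of Vha68-1 overlap.

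The size of the difference depended on how libraries were put on 1 scale. The summed scaled reads of the 32 genes were 199307 and 195203 in H2A.Z KD, 167904 and 163618 in Luc KD and 165193 and 169050.0 in Ac R29G, while their unscaled share of all gene reads was 0.607% and 0.655% in H2A.Z KD, 0.586% and 0.617% in Luc KD and 0.565% and 0.614% in Ac R29G. By share, the H2A.Z KD library of each table was above the Luc KD library of that table, but table A of H2A.Z KD lay below table B of Luc KD. With total gene reads as the scale, the median difference of the 14 broadly expressed genes was 0.08 and that of all genes -0.19, and with library median scaling they were 0.39 and 0.11. The 14 genes thus stood 0.27 to 0.28 above the median of all genes under the main scale (median of ratios in the H2A.Z set), library median, TMM and total read scales. Each of these scales divides a library by 1 factor, which moves all genes nearly alike. The likeness of these gaps was therefore fixed in advance and tests nothing. Quantile scaling can change the gap, and under it the 14 genes stood 0.13 above the median of all genes. Under the main scale the median of genes with a mean of at least 1000 was higher than that of all genes, at 0.07. With the block, 14 of the 14 passed under library median scaling, 13 under TMM, 6 under quantile and 3 under total read scaling, and none was called lower. The shares of all genes called higher in the same fits were 26.2% under library median scaling, 16.3% under TMM, 15% under quantile and 9.02% under total read scaling.

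**Figure D4:**
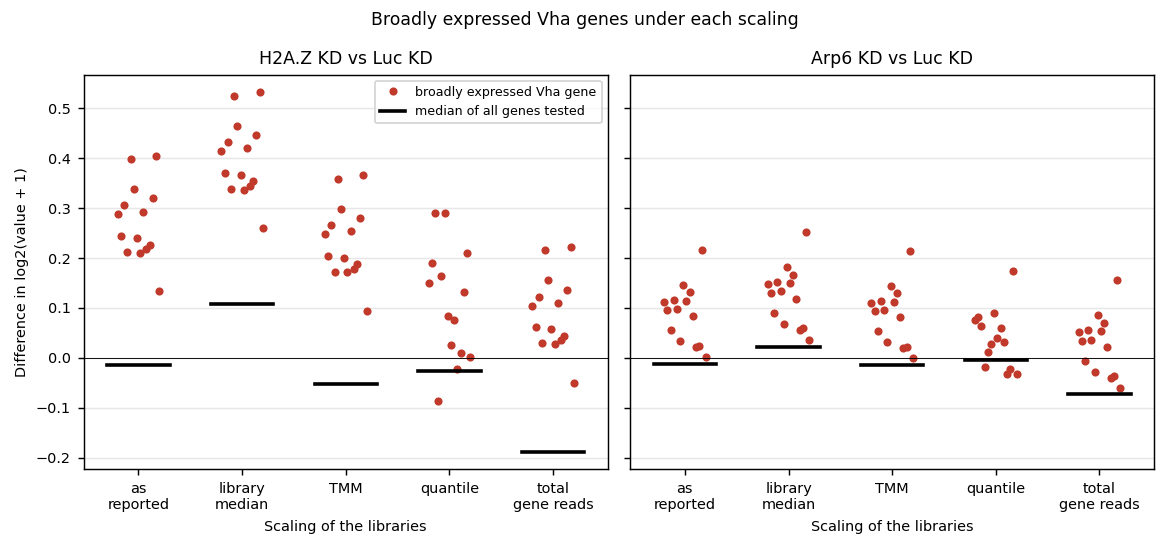
Difference in log2(value + 1) of the 14 broadly expressed Vha genes (red points) and the median over all genes tested (black bars) under each of 5 scalings, for H2A.Z KD against Luc KD and for Arp6 KD against Luc KD. The points and the bar shift together between scalings that divide a library by 1 factor, as they must. Under quantile scaling, which can change the gap, they come closer. The axis label "as reported" stands for the main scale, which is the median of ratios in the H2A.Z set and the deposited values in the Arp6 set.

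The authors' deposited table for H2A.Z KD over Luc KD lists 28 of the 32 genes, 20 of them with an adjusted p. In the authors' deposited table for H2A.Z KD an adjusted p under 0.05 is given for 5 members, all of them higher and all among the broadly expressed genes, namely Vha14-1, Vha26, Vha36-1, Vha68-2 and VhaPPA1-1. The log2 fold change there is 0.40 for Vha26 and 0.41 for VhaPPA1-1. In the authors' deposited table for Ac WT over Ac R29G 0 of 28 members pass, and the adjusted p is 1 for every member. The share of all genes that pass was not counted in either deposited table, so neither count of members has a background beside it.

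Ac WT and Ac R29G, both under Luc KD, were compared next. The pump genes differed little, and 0 of 25 members passed without a block, where 0% of all genes did (limma), with 0 members at an unadjusted p below 0.05 and 0 called by edgeR or DESeq2. With the table as a block 0 of 25 passed, where 0.62% of all genes did, and 1 member, Vha68-1, had an unadjusted p below 0.05. The median difference of the 14 broadly expressed genes was -0.01, the same as that of all genes tested, and their differences ran from -0.08 to 0.07. This comparison shares its 2 Ac WT libraries with the H2A.Z comparison. The 95% intervals of the 14 genes in the blocked fit lay within -0.21 to 0.19, which leaves out a change as large as that of Vha26 or VhaPPA1-1 in H2A.Z KD.

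Examples show how close the 2 groups were. In V1, Vha68-2 had 10896 and 11327 scaled reads with Ac WT and 10581 and 11684 with Ac R29G, Vha55 had 10243 and 10594 scaled reads with Ac WT and 9872 and 11081 with Ac R29G. Vha44 had 7078 and 6059 with Ac WT and 6399.5 and 6072 with Ac R29G. Vha13 had 2963 and 2409 with Ac WT and 2898 and 2408 with Ac R29G. These pairs overlapped. In V0 and the accessory protein, Vha16-1 had 56194 and 49919.7 scaled reads with Ac WT and 54176 and 52288 with Ac R29G, and VhaAC45 had 12618 and 12408 with Ac WT and 12086 and 12417 with Ac R29G. VhaM9.7-b had 6106 and 6929 with Ac WT and 6668 and 7111 with Ac R29G, and the regulatory VhaSFD had 5515 and 6051 with Ac WT and 5674 and 6039 with Ac R29G. VhaAC39-1 had 11538 and 11647 with Ac WT and 11912 and 12453 with Ac R29G. The ranges overlapped for 12 of the 14 genes, and in the other 2, VhaAC39-1 and Vha14-1, Ac WT lay below Ac R29G, where 11.9% of all genes tested had Ac WT below without overlap.

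Vha68-1 showed the largest difference of the members with over 100 scaled reads, with 528 and 713 scaled reads with Ac WT and 466 and 491 with Ac R29G. The difference of 0.36 ± 0.10 did not pass with the block (limma, adjusted p = 0.152). Vha68-1 did pass with the block and only the 2 groups compared, where 2.56% of all genes passed. Over all settings its difference ran from 0.14 to 0.58.

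Arp6 KD was compared with its own Luc KD, both with Ac WT. The 14 broadly expressed genes all had a higher mean in the knockdown, by 0.00 to 0.22 with a median of 0.10. So did 47.1% of all 10605 genes tested, where the median was -0.01. Of the 1965 genes with a mean of at least 1000, 71.3% had a higher mean, with a median of 0.06. The sign turned for VhaSFD under TMM scaling, for 4 of the 14 under quantile scaling and for 5 under total read scaling. None of the 23 members tested passed (limma without a block), where 0.0283% of all genes did, and 1 member had an unadjusted p below 0.05. With the replicate number as a block 0 of 23 passed, where 0% of all genes did, and 8 members had an unadjusted p below 0.05. edgeR's quasi-likelihood test with the block called 3 members higher, Vha44, Vha68-2 and VhaPPA1-1, of 21 it tested, where it called 10.8% of all genes and 6.55% higher; edgeR without it and DESeq2 in both fits called 0.

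For 9 of the 14 genes both Arp6 KD libraries lay above both Luc KD libraries, against 18.6% of all genes and 38.4% of those with a mean of at least 1000. Of the 14 genes Vha13, Vha14-1 and Vha36-1 have a mean under 1000 scaled reads in this set, so that this second share and those like it match the other 11. For 12 of the 14 each Arp6 KD library lay above the Luc KD library of the same number, against 28.3% of all genes and 58.2% of those with a mean of at least 1000. VhaPPA1-1 had the largest difference, with 2289 and 1952 scaled reads in Arp6 KD and 1879 and 1762 in Luc KD (difference 0.22 ± 0.085, limma, adjusted p = 0.695). Vha44 had 2515 and 2482 in Arp6 KD and 2178 and 2338 in Luc KD, and Vha68-2 had 3794 and 3704 in Arp6 KD, against 3447 and 3399 in Luc KD. The groups of all 3 genes were apart in these 4 libraries.

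In V1, Vha55 had 2769 and 2533 scaled reads in Arp6 KD, against 2479.7 and 2412 in Luc KD, and Vha26 had 7047 and 6174 in Arp6 KD, against 6458 and 5883 in Luc KD. Vha13 had 982 and 984 in Arp6 KD and 920.4 and 920.1 in Luc KD, and Vha14-1 had 632 and 595 in Arp6 KD, against 588 and 592 in Luc KD. Vha55, Vha13 and Vha14-1 were apart by small margins, while the Vha26 libraries overlapped. Vha36-1 had 896 and 849 in Arp6 KD and 811 and 896 in Luc KD, and VhaSFD had 1692 and 1561 in Arp6 KD, against 1659.8 and 1590.2 in Luc KD. In both of these genes the pairs went in opposite directions.

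In V0, Vha16-1 had 15417 and 14524 scaled reads in Arp6 KD and 13928 and 13687 in Luc KD, and Vha100-2 had 2003 and 1839.5 in Arp6 KD, against 1822 and 1730.2 in Luc KD. VhaAC39-1 had 3476 and 3261 in Arp6 KD and 3205 and 3151 in Luc KD, and VhaM9.7-b had 2064 and 2011 in Arp6 KD, against 2015 and 1992 in Luc KD. VhaAC45 had 3471 and 3259 in Arp6 KD and 3401 and 3229 in Luc KD. Vha16-1, Vha100-2 and VhaAC39-1 were apart, and the VhaM9.7-b and VhaAC45 libraries overlapped. VhaM9.7-c, the paralog that was lower in H2A.Z KD, had 105 and 115 in Arp6 KD and 131 and 143 in Luc KD without overlap (difference -0.31 ± 0.14, limma, adjusted p = 0.702). Of all genes tested, 20.4% had Arp6 KD below Luc KD without overlap. Vha16-5 had 5.1 and 18 in Arp6 KD and 13.8 and 26.3 in Luc KD, which overlapped.

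Without replicate 1 of Arp6 KD, the library with most Arp6 RNA left, 0 members passed and the median over the 23 members was 0.02; without replicate 2 of Arp6 KD it was 0.07 over 22 members, and 0 passed. The same replicate 1 library also had the transfected factors lower, with ac at 48.5% and da at 45.9% of its Luc KD, against 92.9% and 81.7% in replicate 2; their part in these values was not tested. In H2A.Z KD, da was at 69.6% and 70.2% of Luc KD and ac at 81.5% and 104.9%, and their part was not tested there either. Whether the pump genes differed more in H2A.Z KD than in Arp6 KD was not tested, since the sets were scaled separately and differ in depth.

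**Figure D5:**
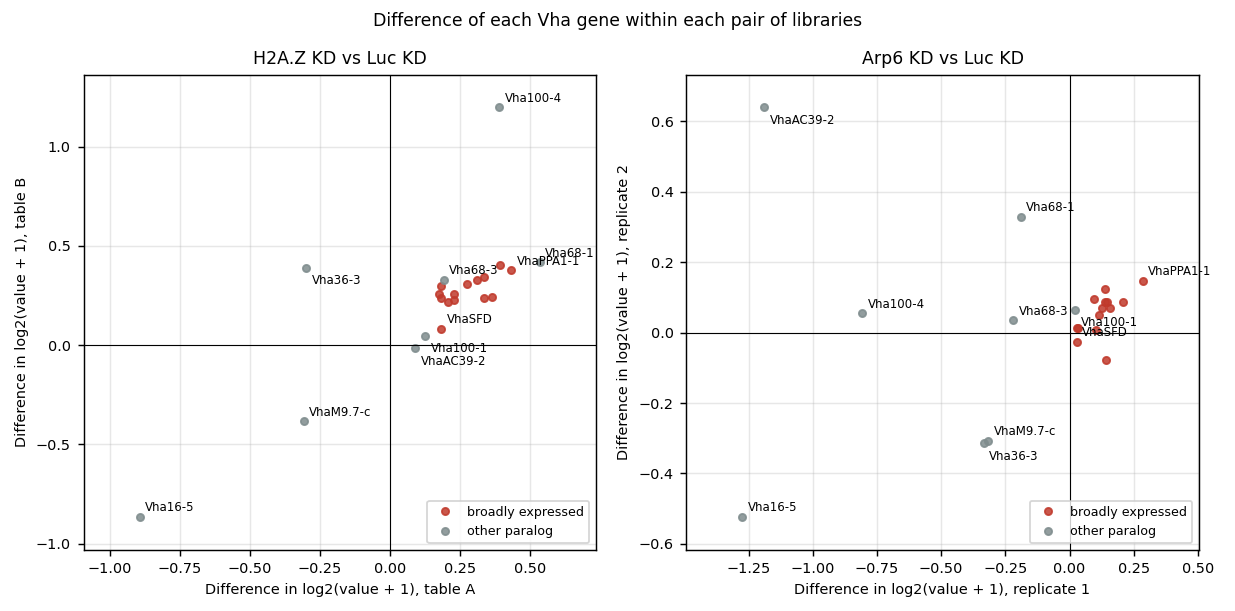
Difference in log2(value + 1) of each Vha gene with at least 10 scaled reads within table A (x) and table B (y) for H2A.Z KD against Luc KD, and within replicate 1 (x) and replicate 2 (y) for Arp6 KD against Luc KD; red marks broadly expressed genes and grey the other paralogs. In H2A.Z KD all 14 red points lie above 0 on both axes, against 37.4% of all genes and 52.7% of those with a mean of at least 1000. In Arp6 KD 12 of the 14 do, against 28.3% and 58.2%. Under quantile or total read scaling some means turn sign.

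Genes that work with the pump were read from 3 short lists under the main scale only, first in H2A.Z KD against Luc KD. Of 4 genes that regulate or assemble the pump, 0 passed without the block and 3 rose with it. In the blocked fit 18.4% of all genes rose, and 37.5% of those with a mean of at least 1000. The list median was 0.27, against -0.01 for all genes and 0.07 for those with a mean of at least 1000. Mitf, a transcription factor related to mammalian TFEB that activates pump and lysosome genes, had 1253 and 1150.0 scaled reads in H2A.Z KD, against 941 and 912 in Luc KD (difference 0.37, limma with block, adjusted p = 0.00109). Both H2A.Z KD libraries of Mitf lay above all 4 Luc KD libraries of the set, which include Ac R29G at 1032 and 902. In 25% of all genes H2A.Z KD lay above Luc KD with Ac WT without overlap, and the share above all 4 was not counted. Rbcn-3B, of the rabconnectin complex that helps V1 and V0 join, had 8188 and 9257 in H2A.Z KD and 6491 and 7485 in Luc KD (difference 0.32, adjusted p = 0.000176, same fit). SkpA differed by 0.21 (adjusted p = 0.014), and Rbcn-3A, the partner of Rbcn-3B, by 0.05 (adjusted p = 0.509).

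The Ragulator and Rag proteins dock the growth kinase TORC1 on lysosomes beside the pump. Of their 7 genes 6 were tested, 0 passed without the block, and 4 fell and 0 rose with it (where 19.3% of all genes fell and 18.4% rose), with a list median of -0.40. Lamtor5 and RagA-B did not pass with the block, with differences of 0.08 and -0.16 (limma, adjusted p = 0.432 and 0.145), and Lamtor2 was listed at 0. Lamtor4 had 344 and 283 scaled reads in H2A.Z KD, against 452 and 456 in Luc KD (difference -0.54, limma with block, adjusted p = 0.000877). RagC-D had 716 and 684 in H2A.Z KD and 936 and 911 in Luc KD (difference -0.40, adjusted p = 0.000889). Lamtor1 and Lamtor3 differed by -0.41 and -0.39 (adjusted p = 0.00154 and 0.00245). For all 4 genes the H2A.Z KD libraries lay below both Luc KD libraries, as they did for 27% of all genes tested.

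Of 15 genes for lysosomal enzymes, transporters and membrane proteins 13 were tested, and 7 rose and 2 fell with the block. In the blocked fit 18.4% of all genes rose and 19.3% fell. Of genes with a mean of at least 1000, a level that most of this list reaches, 37.5% rose and 19.6% fell. The list median was 0.25, against 0.07 for genes at that level. The lysosomal thioesterase gene Ppt1 had 1305 and 1236 scaled reads in H2A.Z KD, against 1776 and 1719 in Luc KD, and fell in both fits (difference -0.46, limma, adjusted p = 0.0389 without the block). It was the only gene of the 3 lists called without the block. The sterol carrier gene Npc2a had 1902 and 2183 in H2A.Z KD and 1181 and 1648 in Luc KD (difference 0.55, adjusted p = 3.28e-05 with block). The transporter gene spin had 10269 and 10242 in H2A.Z KD and 8278 and 6635 in Luc KD (difference 0.47, adjusted p = 3.67e-05 with block), and the cathepsin L gene CtsL1 had 72686 and 64113 in H2A.Z KD, against 52109 and 47776 in Luc KD (difference 0.45, adjusted p = 4.97e-06 with block). The H2A.Z KD libraries of these 3 genes were above both Luc KD libraries, as in 25% of all genes and 35.9% of those with a mean of at least 1000.

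Outside the symbol rule, the accessory gene ATP6AP2 (VhaM8.9) had 11322 and 10969 scaled reads in H2A.Z KD, against 8811 and 8575 in Luc KD and 8517 and 9134 in Ac R29G. It rose by 0.36 with the block (limma, adjusted p = 9e-05, and 0.0611 without it). In Arp6 KD it had 2609.5 and 2269.9 and in Luc KD 2465 and 2293, which overlap. In the Ac WT against Ac R29G and the Arp6 KD comparisons 0 genes of the 3 lists passed in either fit, and the medians in Arp6 KD were 0.05 for the regulators, -0.19 for the Ragulator and Rag genes and 0.02 for the lysosomal genes.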

How the data were processed

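RNA-seq of S2 cells was read from 3 library tables and 2 tables of fold changes. Per the labels and the submitters' processing notes, Partek and the BDGP6 genome were used, and no aligner, counter or strand setting is named. The deposited signal of each library is its gene reads divided by 1 factor, and whole reads were recovered for 100% of values within 0.001. The authors' deposited tables give log2 fold changes, p-values, adjusted p-values (other) and a score (the fold change over its error). The members and lists were chosen with earlier results of these data known.

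Libraries of the H2A.Z set were put on 1 scale by the median of ratios; the Arp6 set kept its deposited values. log2(value + 1) of genes with a mean of at least 1 was fitted with limma 3.58.1 (R 4.3.3, intensity trend, all 3 groups of the H2A.Z set, the sets apart), with Benjamini-Hochberg adjustment at 0.05 over all genes. On simulated data for H2A.Z KD 99% of 100 genes changed by 1 log2 unit were recovered. The simulation held no table effect and no change as small as the 0.13 to 0.41 of the broadly expressed genes. It therefore does not show how often changes of that size are found. The pairing of libraries by table comes from the shared table and from deviations that correlated at 0.623, 0.576 and 0.646 over 9103 genes, not from the labels, and the replicate block is given beside the fit without it. Alternatives used edgeR 4.0.16, DESeq2 1.42.0, 4 other scalings and left-out libraries. Members were named with values in every library where broadly expressed or called in either fit, and others from 10 scaled reads.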

Additional observations from a re-analysis of the deposited data

How the results depend on the processing

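For H2A.Z KD against Luc KD the count of 0 members called became 17 with the replicate block, 17 with the block and library median, TMM scaling or edgeR, 16 with the block and only the 2 groups compared, 14 with the block and DESeq2, 9 with the block and quantile scaling and 6 with the block and total read scaling. Without the block it was 6 with library median scaling or DESeq2, 2 with a mean of at least 10 and 1 with edgeR. Of all genes, the block called 37.7% under the main scale, 37.9% with library median scaling, 38.8% with TMM and 49.5% with edgeR. It called 37.2% with only the 2 groups, 27.8% with DESeq2, 31.9% with quantile and 42.9% with total read scaling. Without the block these shares were 8.41% with library median scaling, 12.2% with DESeq2, 6.93% with a mean of at least 10 and 7.23% with edgeR. Leaving out 1 library gave 0 members in every fit without the block and 9 to 17 with it, among them 13 without Luc KD of table A and 15 without H2A.Z KD of table B. The other alternatives without the block, and the block without an intensity trend, gave 0. For Ac WT against Ac R29G the block gave 1 member with only the 2 groups compared, where 2.56% of all genes were called. For Arp6 KD against Luc KD edgeR with the block gave 3, where it called 10.8% of all genes, and the other alternatives gave 0. Same-numbered Arp6 libraries deviated together (0.50 over 7976 genes). With 2 pairs this pairing stays uncertain, so the fit with the replicate number as a block is given beside the fit without it. Leaving out a library with the block was not run in the Arp6 set, since no complete second pair remains. Under quantile scaling, with and without the block, the H2A.Z KD differences of Vha16-1 and VhaAC39-1 reversed to -0.086 and -0.021. Mean summed reads of the members under library median scaling were 209680 in H2A.Z KD, 161400 in Luc KD and 161465 in Ac R29G. Total read scaling, and the block with TMM, without the trend or with only the 2 groups, were chosen after seeing the data. The causes of these shifts were not tested. Intervals cover the spread between 2 libraries a group, and the paralogs under 100 reads are limited by depth.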
